A study of Rattus norvegicus with 2 samples.

Results

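The Trim family was followed across 2 RNA sequencing libraries of H9c2 cells, a clonal line derived from embryonic rat heart (strain BD1X). One library came from cells that received an empty vector and 1 from cells that received a beta4 plasmid, which carries Cacnb4, the beta4 subunit of voltage-gated calcium channels. Both cultures were transfected, and the sources used here give no time after transfection. The study asked which transcripts differ in level when the beta4 subunit is added. Members were taken by name: every symbol made of "Trim" and a number, with the levels of its transcripts added up, and a level of 1 FPKM or more in at least 1 library. FPKM is the number of sequenced fragments scaled to transcript length and library size. The deposited table held 48 such symbols, and 32 of them passed the minimum, out of 9539 genes that did so in all. There was 1 library per group, so no difference below has a replicate check and none was tested. In such bulk RNA, fewer cells of a type and less RNA per cell cannot be told apart.

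Trim proteins are built from a RING finger, B-boxes and a coiled coil, followed by a C-terminal part that differs between members. The RING finger passes ubiquitin from a conjugating enzyme to a target, which makes most members ubiquitin ligases. The C-terminal part picks the target, and members with a PRY-SPRY domain there include many factors of defence against viruses. Other members act on chromatin, on microtubules or in striated muscle, and a few lack the RING finger.

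After adaptor removal and before mapping, the libraries held 13569897 reads with the empty vector and 14939784 with the plasmid. Cacnb4 was listed at 4.37 FPKM with the empty vector and at 6266 FPKM with the plasmid. Of 12 markers of myoblasts and heart muscle, 8 were measured, among them Myod1 and Myog, which specify skeletal muscle. The heart markers of the list were mixed. Tnnt2 was at 214 FPKM with the empty vector and 309 FPKM with the plasmid, Actc1 at 225 and 192 FPKM, and Gata4 at 4.05 and 3.05 FPKM, whereas Nppa, Nppb, Myl2 and Myh7 were under 1 FPKM in both. Of 10 leukocyte markers, only Cd14 was measured, at 8.76 FPKM with the empty vector and 9.61 FPKM with the plasmid. The summed level of those 10 was 10.5 and 12.6 FPKM, with Aif1 listed at 0 in the empty vector library and Lyz2 at 0 in the plasmid library. No endothelial or neuronal marker of 5 and 6 with a row reached 1 FPKM. The part of other cell types in the differences below was not tested.

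Of the 32 members, 3 were at least 2-fold higher with the Cacnb4 plasmid on the log2 scale of FPKM plus 1, and 0 were 2-fold lower. The 3 were Trim21, Trim34 and Trim25. Over all 9539 measured genes, 1.94% were 2-fold higher and 1.08% were 2-fold lower. Trim26 and Trim5 came next, with log2 ratios of 0.98 and 0.83, and did not reach 2-fold. These 5 are described below as the members with the highest ratios, a grouping made after the values were seen. The other 27 members had a plasmid level between 0.688 and 1.24 times the empty vector level. The family's median log2 ratio was -0.02, beside -0.03 for all measured genes. A ratio above 0 was held by 15 of 32 members, or 46.9%, beside 44.6% of all measured genes.

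RefSeq promoter sequences (assembly GRCr8) were found for 26 of the 32 members and for all 5 with the highest ratios. They span 250 bases before to 50 bases after a gene's start. The letters GAAANNGAA, the core of the interferon-stimulated response element bound by Stat and Irf factors, were searched on both strands. They stood in 3 of the 26, or 11.5%, those of Trim21, Trim34 and Trim26, and in 9.71% of all 33469 promoters in the table. Each of the 3 held 2 matches on the same strand that overlapped by 3 bases. Such a pair, counted after the 3 had been seen, stood in 66 of the 33469 promoters, or 0.197%. Because the pair was defined from these 3 promoters, that share is no independent comparison for them. The stretches of 30 bases around it are shown because 3 of the 5 members with the highest ratios hold such a pair, read 5′ to 3′ on the strand of the match, with the pair in capitals.

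Trim21: ctgagagGAAACTGAAAGTGAAattagact
Trim34: gatgccgaGAAAAAGAAACTGAAactccag
Trim26: gggcccgaGAAAAGGAAAGTGAAatcggaa

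The Trim21 stretch is chr1:166399367-166399396 on the minus strand, and its pair lies 18 to 4 bases before the start used in the table. RefSeq lists an outer start of Trim21 70 bases further upstream. The Trim34 stretch is chr1:168119047-168119076 on the minus strand, opposite to the gene, with the pair 11 to 25 bases after the start. The Trim26 stretch is chr20:1736486-1736515 on the plus strand, opposite to the gene, with the pair 197 to 183 bases before the start. Trim25 and Trim5 had no match in their windows, nor had any of the other 21 promoters. The letters TTCNNNGAA, the gamma-activated site, stood in 1 of the 26, that of Trim23, and in 8.87% of all promoters. A match is a description of the letters, and no binding was measured.

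A longer stretch is given for 2 of these 5, Trim26, where it holds the matches, and Trim25, where it holds none. The Trim26 stretch is chr20:1736390-1736561 and ends at the gene's outer start, 78 bases before the start used in the table. The Trim25 stretch is chr10:74309774-74310023, directly before the start. Both are read 5′ to 3′ on the strand of the gene, minus for Trim26 and plus for Trim25, with the matches in capitals.

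Trim26: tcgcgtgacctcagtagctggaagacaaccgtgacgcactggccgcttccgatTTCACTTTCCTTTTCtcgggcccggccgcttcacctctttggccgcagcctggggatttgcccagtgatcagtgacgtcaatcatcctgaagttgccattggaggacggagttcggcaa
Trim25: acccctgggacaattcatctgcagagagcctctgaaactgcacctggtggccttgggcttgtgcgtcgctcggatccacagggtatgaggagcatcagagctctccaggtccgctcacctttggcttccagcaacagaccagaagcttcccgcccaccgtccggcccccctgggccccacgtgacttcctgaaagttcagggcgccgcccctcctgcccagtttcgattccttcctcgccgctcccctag

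Trim21, a cytosolic antibody receptor that marks antibody-coated virus for the proteasome, had the highest ratio of the family. Its level was 3.81 FPKM with the empty vector and 24.4 FPKM with the plasmid, a 6.40-fold difference. The log2 ratio of 2.40 held rank 62 among all measured genes. The gene lies on chromosome 1 from 160174197 to 160187673 in rn4, and the table lists 2 transcripts for it, described further on. The authors' deposited table marked 1 of them as significant, with a q-value of 4.99e-07.

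Trim34, which in human cells acts on retroviral capsids together with TRIM5, was at 5.68 FPKM with the empty vector and 22.8 FPKM with the plasmid. The plasmid library was 4.02 times as high, with a log2 ratio of 1.84 at rank 99. The gene has 1 transcript and spans 162083188 to 162094690 of chromosome 1 in rn4. Its q-value in the authors' deposited table was 3.11e-07. Trim25, the ligase that modifies the RNA sensor RIG-I and attaches Isg15 to proteins, was at 3.99 FPKM with the empty vector and 14.5 FPKM with the plasmid. It was 3.65 times as high, with a log2 ratio of 1.64 at rank 108, on chromosome 10 from 77459829 to 77491594. Its q-value in the authors' deposited table was 1.61e-06, and a second Trim25 transcript was listed at 0 in both libraries. RefSeq lists a pseudogene of Trim25, so reads may be shared with it. All 3 genes were higher with the plasmid and under 6 FPKM without it.

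In all, 3 members had a transcript marked in the authors' deposited table, each higher with the plasmid. Of all 9539 measured genes, 0.975% had one. The test behind the mark sets 1 library against 1 other and says nothing of the spread within a condition. In the authors' deposited table of pathways enriched among higher genes, Trim25 was 1 of the 6 genes named for RIG-I-like receptor signalling. No other member was named in its KEGG pathway rows, the only rows searched.

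Trim26 and Trim5 started from higher levels and ended highest of the 5. Trim26, a ligase reported to act on the transcription factor Irf3, was at 19.9 FPKM with the empty vector and 40.3 FPKM with the plasmid. That is 2.03 times as much by FPKM, but a log2 ratio of 0.98 with 1 FPKM added, just under 2-fold. With an added 0.1 FPKM the log2 ratio was 1.02, as it was with the libraries rescaled to a median ratio of 1, so that 4 members were then 2-fold higher. The authors' deposited table gave Trim26 a q-value of 0.0840 and did not mark it. Trim5, whose primate form blocks incoming retroviral capsids, was at 20.5 FPKM with the empty vector and 37.2 FPKM with the plasmid, 1.82 times as much. Its log2 ratio was 0.83, and the authors' deposited table gave a q-value of 0.276.

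**Figure D1:**
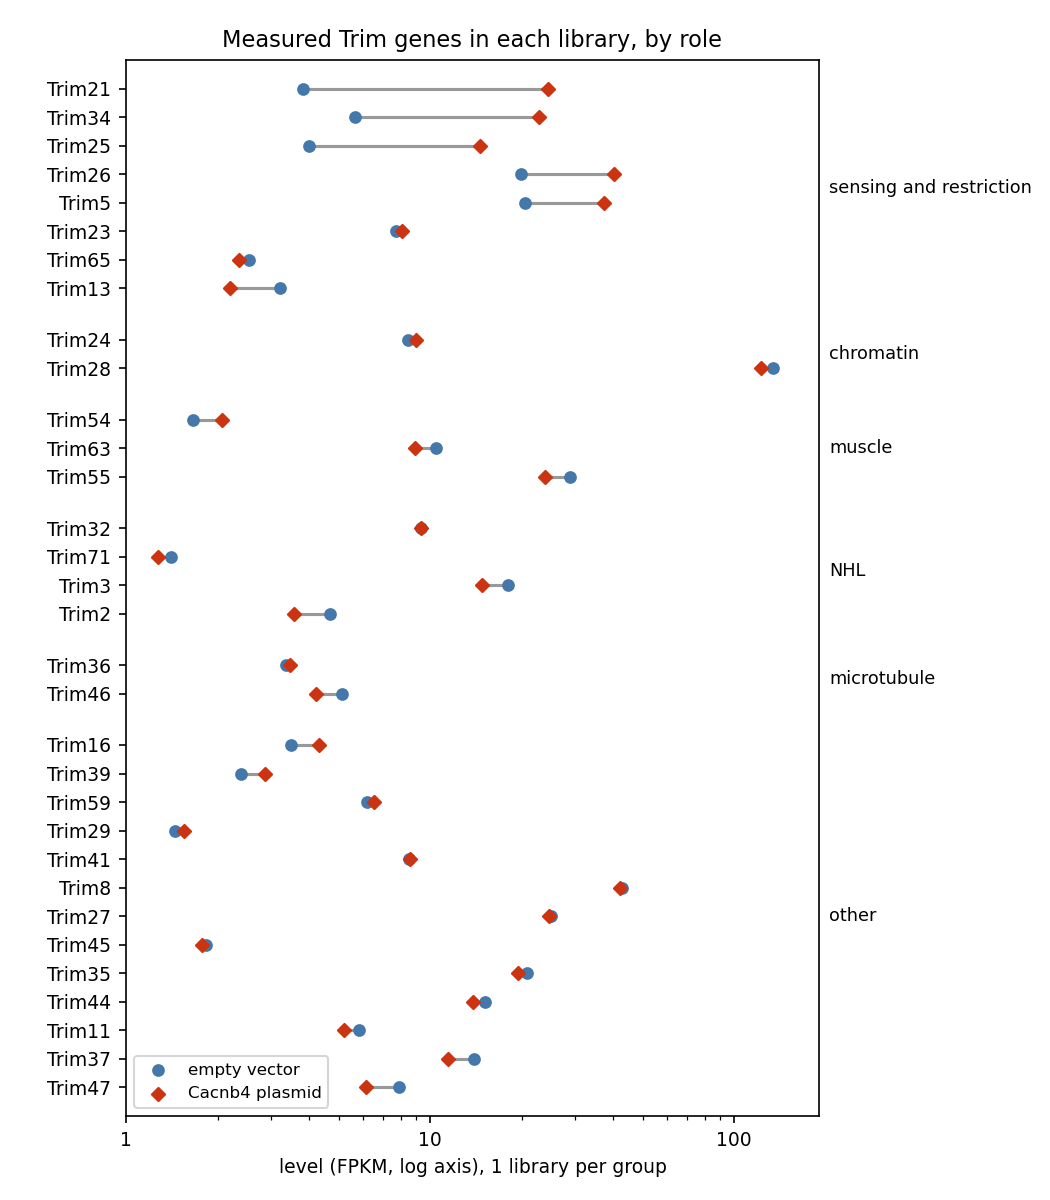
Level of each of the 32 measured Trim genes in FPKM (log axis) in the empty vector library (circles) and the Cacnb4 plasmid library (diamonds), 1 library each, grouped by role. Trim21, Trim34, Trim25, Trim26 and Trim5 stand at the top with long lines between the libraries, while Trim28, at 134 and 123 FPKM, is the most abundant.

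The list of 19 Trim genes of nucleic acid sensing and viral restriction had 12 with a row and 8 measured. Of these 8, 3 were 2-fold higher, 0 were 2-fold lower and 2 had a ratio below 0, with a median log2 ratio of 0.91. The shares of all measured genes were 1.94% higher and 1.08% lower at 2-fold. The list was chosen with earlier results of these data known, so these counts depend on which members were assigned to it. Trim23, which carries an ARF GTPase domain, was at 7.72 FPKM with the empty vector and 8.09 FPKM with the plasmid. Trim65, a ligase for the RNA sensor Ifih1, was at 2.54 and 2.35 FPKM. Trim13, anchored in the endoplasmic reticulum membrane, had the lowest ratio of all 32 members, at 3.20 FPKM with the empty vector and 2.21 FPKM with the plasmid. Its log2 ratio was -0.39. So the list held both the highest and the lowest ratio of the family. Trim56 and 6 other genes of the list, Trim12, Trim15, Trim22, Trim30, Trim30c and Trim38, were not analysed here.

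Among members that act on chromatin, Trim28, the corepressor recruited by KRAB zinc finger proteins, was the most abundant of the family. It was at 134 FPKM with the empty vector and 123 FPKM with the plasmid, at rank 758 of all measured genes by mean level. Trim24, a bromodomain coregulator of nuclear receptors, was at 8.45 FPKM with the empty vector and 8.96 FPKM with the plasmid. Both stayed close to the median of all genes, with log2 ratios of -0.12 and 0.08. Trim33 of this list was not analysed here, and Trim66 was below the minimum.

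The muscle RING finger genes, whose proteins sit at the sarcomere and mark muscle proteins for breakdown, were all 3 measured and within 2-fold. Trim55 was at 28.9 FPKM with the empty vector and 23.9 FPKM with the plasmid. Trim63, induced in muscle atrophy, was at 10.4 and 8.89 FPKM. Trim54 was at 1.67 and 2.07 FPKM. The muscle list, which also holds the membrane repair gene Trim72 at 0.566 and 0.599 FPKM, had a median log2 ratio of -0.21 over its 3 measured genes.

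All 4 members with an NHL domain, a propeller that binds RNA or protein, were measured and none was 2-fold different. Trim3 was at 18.1 FPKM with the empty vector and 14.8 FPKM with the plasmid. Trim2, a ligase of neurons that binds neurofilament, was at 4.67 and 3.57 FPKM. Trim32, mutated in a limb-girdle muscular dystrophy, was at 9.32 and 9.34 FPKM, the ratio closest to 1 in the family. Its locus in the table is shared with Astn2, which was at 0.0895 and 0.242 FPKM. Trim71, a regulator of stem cell differentiation, was at 1.402 and 1.27 FPKM. The median log2 ratio of these 4 was -0.18, with 3 below 0, where 5280 of all 9539 measured genes were below 0.

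The measured members with a COS box, which binds microtubules, were the 3 muscle RING finger genes, Trim36 and Trim46. Their median log2 ratio was -0.21, with 3 of 5 below 0, beside 5280 of all 9539 measured genes. Trim46, which organises microtubules in the axon, was at 5.14 FPKM with the empty vector and 4.23 FPKM with the plasmid. Trim36 was at 3.36 and 3.45 FPKM. Trim9 and Trim67 of this list were below the minimum.

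The remaining 13 measured members, of growth control, cell death and other roles, held 0 genes at 2-fold. Their median log2 ratio was -0.02, with 8 ratios below 0, beside 5280 of all 9539 measured genes. Trim8, a regulator of cytokine and NF-kappa B signalling, was second in abundance, at 42.7 FPKM with the empty vector and 42.1 FPKM with the plasmid. Trim27 was at 25.0 and 24.6 FPKM. Trim8 and Trim27 both had a log2 ratio of -0.02, which turned to 0.02 and 0.01 when the libraries were rescaled. Trim35 was at 20.8 FPKM with the empty vector and 19.5 FPKM with the plasmid. Trim44, which has B-boxes without a RING finger, was at 15.1 and 13.8 FPKM. Trim37, a peroxisome and centrosome ligase, was at 13.9 and 11.4 FPKM. These 3 had log2 ratios between -0.26 and -0.09.

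Trim47 had the lowest ratio of that group, at 7.92 FPKM with the empty vector and 6.17 FPKM with the plasmid. Trim41 was at 8.54 and 8.61 FPKM. Trim59 was at 6.18 and 6.53 FPKM. Trim41 and Trim59 differed by less than 10% between the libraries. Trim11 was at 5.84 and 5.23 FPKM. Trim16, which acts in autophagy of damaged lysosomes, was at 3.49 and 4.30 FPKM, the highest ratio of the group with a log2 ratio of 0.24. Trim39 was at 2.38 FPKM with the empty vector and 2.86 FPKM with the plasmid. Both Trim16 and Trim39 have a PRY-SPRY domain and had log2 ratios below those of the 5 members with the highest ratios. Trim45 was at 1.84 and 1.77 FPKM. Trim29 was at 1.45 and 1.55 FPKM. The measured members without a RING finger, Trim16, Trim29 and Trim44, had a median log2 ratio of 0.06.

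**Figure D2:**
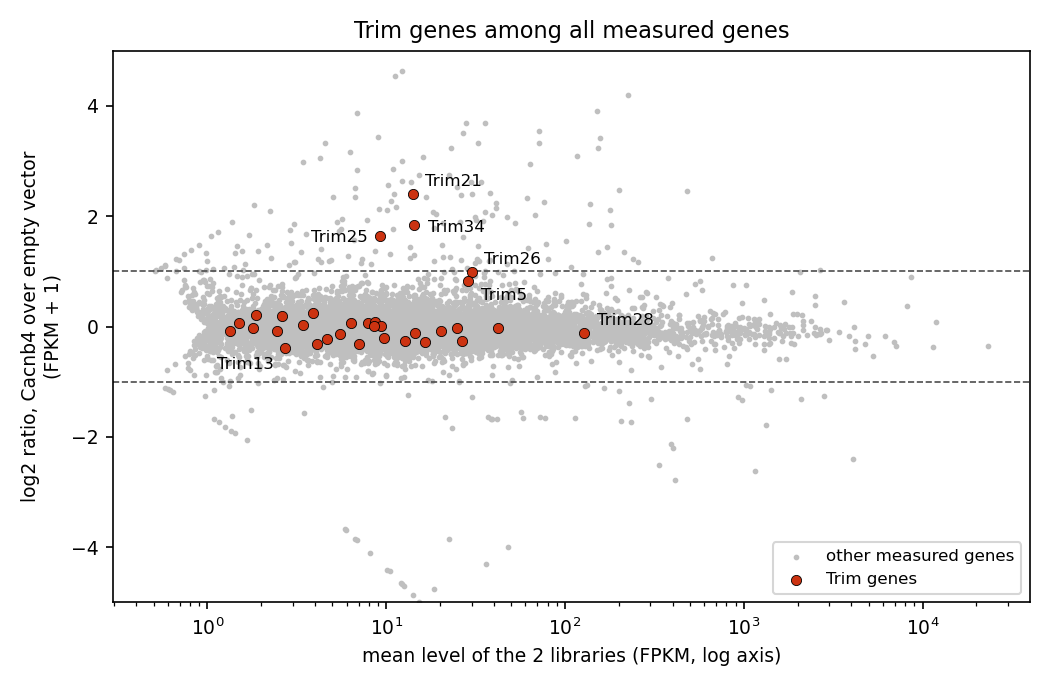
Log2 ratio of FPKM plus 1, Cacnb4 plasmid over empty vector, against the mean level of the 2 libraries in FPKM (log axis), for Trim genes (red) and other measured genes (grey). Dashed lines mark 2-fold, 50 genes beyond 5 in either direction are not drawn, and 27 of the 32 Trim genes lie within 0.4 of 0.

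In the distribution of ratios, 27 members had an absolute log2 ratio under 0.4, 0 lay between 0.4 and 0.8, and 5 lay above. These bounds were set after the values were seen. Of all measured genes, 86.6% were under 0.4, beside 84.4% of the members. The summed level of the 5 members with the highest ratios was 53.8 FPKM with the empty vector and 139 FPKM with the plasmid. The other 27 summed to 394 and 364 FPKM. The family as a whole summed to 448 and 504 FPKM, so its sum was higher with the plasmid while the sum without those 5 was lower. Those 5 were picked by their ratios, which by itself lowers the ratio of the remaining sums. Over all measured genes the sum was 691006 FPKM with the empty vector and 657633 FPKM with the plasmid, also lower. Levels were modest for most members. The median member was at 6.95 FPKM with the empty vector and 8.75 FPKM with the plasmid, where the median measured gene was at 13.7 and 13.8 FPKM.

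Members were also grouped by C-terminal domain, in classes set after the values were seen. Each was placed in a single class, and members with a COS box in the COS class whatever domain follows. The PRY-SPRY class therefore need not hold every member with that domain. The 3 members at 2-fold were among the 13 of the PRY-SPRY class, as were Trim26 and Trim5, which did not reach 2-fold. That class had 3 genes 2-fold higher, a median log2 ratio of 0.19 and 5 ratios below 0, so a PRY-SPRY domain did not go with a high ratio in every member. The PHD-bromodomain, NHL and COS classes had medians of -0.02, -0.18 and -0.21. The 8 members with another C-terminal part or none had a median of -0.03. None of the 19 members outside the PRY-SPRY class was 2-fold different.

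The 5 members with the highest ratios were then placed on the genome. In rn4, Trim6, Trim34 and Trim5 lie side by side on chromosome 1, with 10.2 kb between the first pair and 1.75 kb between Trim34 and Trim5. Trim6 was below the minimum, at 0.0724 FPKM with the empty vector and 0.194 FPKM with the plasmid. These genes are related in sequence, so reads can be shared between them and their single values are uncertain. Trim21 lies 1.87 Mb before Trim6, and Trim3, which was lower with the plasmid, lies 1.22 Mb after Trim5.

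On chromosome 20, Trim31, Trim40, Trim10 and Trim26 lie within gaps of at most 11.5 kb, and Trim39 lies 281 kb further on. Only Trim26 and Trim39 of these 5 were measured. Trim31 was at 0.460 FPKM with the empty vector and 0.655 FPKM with the plasmid, and Trim40 and Trim10 were under 0.1 FPKM in both. Of the 7 measured members on chromosome 10, only Trim25 was 2-fold different. Its nearest member, Trim37, lies 1.79 Mb away and shares its locus in the table with Ppm1e.

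Where the table lists more than 1 transcript, the split can be followed. For Trim21, the first transcript was at 1.47 FPKM with the empty vector and 13.2 FPKM with the plasmid, 8.97 times as much. The second was at 2.35 and 11.2 FPKM, 4.79 times as much. Both were higher with the plasmid, and the first went from 38.5% to 53.9% of the gene's level. The authors' deposited table marked the first and not the second, and it does not show whether the second was tested. Trim37 had transcripts at 7.62 and 6.51 FPKM and at 6.30 and 4.94 FPKM, both lower with the plasmid. Trim24 came almost wholly from 1 transcript, at 8.43 and 8.82 FPKM, and the other was at 0.0176 and 0.147 FPKM. Trim44 had a second transcript listed at 0 in both libraries. The split of reads between transcripts of a gene is an estimate, and no error for it was used here.

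**Figure D3:**
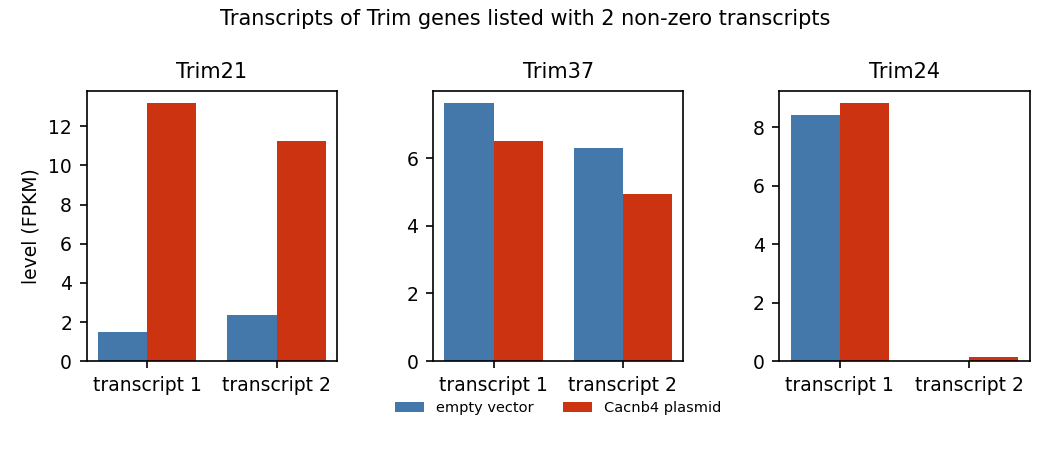
Level in FPKM of each transcript of Trim21, Trim37 and Trim24 in the empty vector library (blue) and the Cacnb4 plasmid library (red), 1 library each, with a separate vertical axis for each gene. Both Trim21 transcripts are higher with the plasmid, at 13.2 and 11.2 FPKM.

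The minimum of 1 FPKM left out 16 symbols. Just above it were Trim71, Trim29 and Trim45, and just below it were Trim31, Trim72 and Trim14. Trim14, an adaptor of RNA sensing at mitochondria, was at 0.565 FPKM with the empty vector and 0.554 FPKM with the plasmid. Trim9, a ligase of neurons, was at 0.140 and 0.436 FPKM. Trim50 was at 0.191 and 0.377 FPKM, Trim66 at 0.271 and 0.357 FPKM, and Trim42 was listed at 0 in both. The other 9, Trim6, Trim10, Trim17, Trim40, Trim43a, Trim52, Trim58, Trim67 and Trim69, were under 0.2 FPKM in both libraries. With no minimum, 3 of 48 symbols were 2-fold higher and 0 were 2-fold lower, beside 185 and 103 of all 16783 symbols. The scale fixes this outcome. With 1 FPKM added, a gene under 1 FPKM in both libraries cannot reach 2-fold, so none of the 16 could be counted.

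Genes that work with Trim ligases were taken from lists chosen with earlier results of these data known, so their counts depend on that choice. As the share to set beside each count, 1.94% of all measured genes were 2-fold higher and 1.08% were 2-fold lower. Of 15 measured partners in RIG-I and STING signalling, 6 were 2-fold higher, 0 were 2-fold lower, and the median log2 ratio was 0.27. Isg15, the ubiquitin-like protein that Trim25 attaches, was at 17.96 FPKM with the empty vector and 285 FPKM with the plasmid. Ddx58, which encodes RIG-I, the target of Trim25, was at 6.68 and 43.2 FPKM. Dhx58 was at 3.60 and 42.4 FPKM, and Ifih1, the target of Trim65, at 2.66 and 21.7 FPKM. Irf7, a transcription factor of interferon genes, was at 60.4 and 341 FPKM. The sixth was Zc3hav1, an antiviral zinc finger gene, at 23.4 and 47.8 FPKM, whose log2 ratio of 1.001 lay at the bound. The authors' deposited table gave Zc3hav1 a q-value of 0.0814 and did not mark it, and it marked 5 genes of the list. Some genes of this list were within 2-fold. Rnf135, a second ligase of RIG-I, was at 3.79 FPKM with the empty vector and 3.84 FPKM with the plasmid. Mavs, the adaptor of RIG-I, was at 6.89 and 7.17 FPKM, and Usp15, which removes ubiquitin from Trim25, at 33.0 and 28.3 FPKM. Tmem173, which encodes STING, was below the minimum at 0.331 and 0.172 FPKM.

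Of 16 measured ubiquitin-activating and conjugating enzymes, 2 were 2-fold higher and the median log2 ratio was 0.01. Both serve Isg15. Uba7, its activating enzyme, was at 3.11 FPKM with the empty vector and 24.3 FPKM with the plasmid, and Ube2l6, its conjugating enzyme, at 17.0 and 48.2 FPKM. The enzymes that supply ubiquitin to Trim ligases differed little. Ube2n was at 110 and 115 FPKM, Ube2d3 at 118 and 116 FPKM, and Ube2g2, the next in size of ratio, at 19.5 and 24.1 FPKM.

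Of 9 measured innate immune ubiquitin ligases outside the family, 2 were 2-fold higher and the median log2 ratio was 0.09. Dtx3l was at 6.80 FPKM with the empty vector and 31.1 FPKM with the plasmid, and Rnf114 at 47.6 and 113 FPKM. Rnf26 was at 23.98 and 20.9 FPKM and Siah2 at 6.27 and 5.59 FPKM. Of 8 measured partners of Trim28, only Daxx, a histone chaperone, was 2-fold higher, at 22.3 and 52.5 FPKM, and the median was 0.07. Setdb1, the histone methyltransferase that Trim28 recruits, was at 6.58 and 7.85 FPKM. Cbx5, a heterochromatin protein, was at 34.4 and 43.4 FPKM, and Dnmt1, the maintenance DNA methyltransferase, at 17.2 and 13.5 FPKM.

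None of the 5 measured muscle atrophy partners was 2-fold different, and their median was 0.03. Fbxo32, the other atrophy ligase beside Trim63, was at 2.23 FPKM with the empty vector and 3.003 FPKM with the plasmid. Klf15, a transcription factor, was at 0.534 and 1.12 FPKM. Relatives of the family under other names had 3 measured genes and 0 at 2-fold, with a median of 0.01. Mid1, a microtubule ligase, was at 9.60 and 15.5 FPKM, and Mid2 at 3.88 and 3.91 FPKM. Pml was not analysed here.

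**Figure D4:**
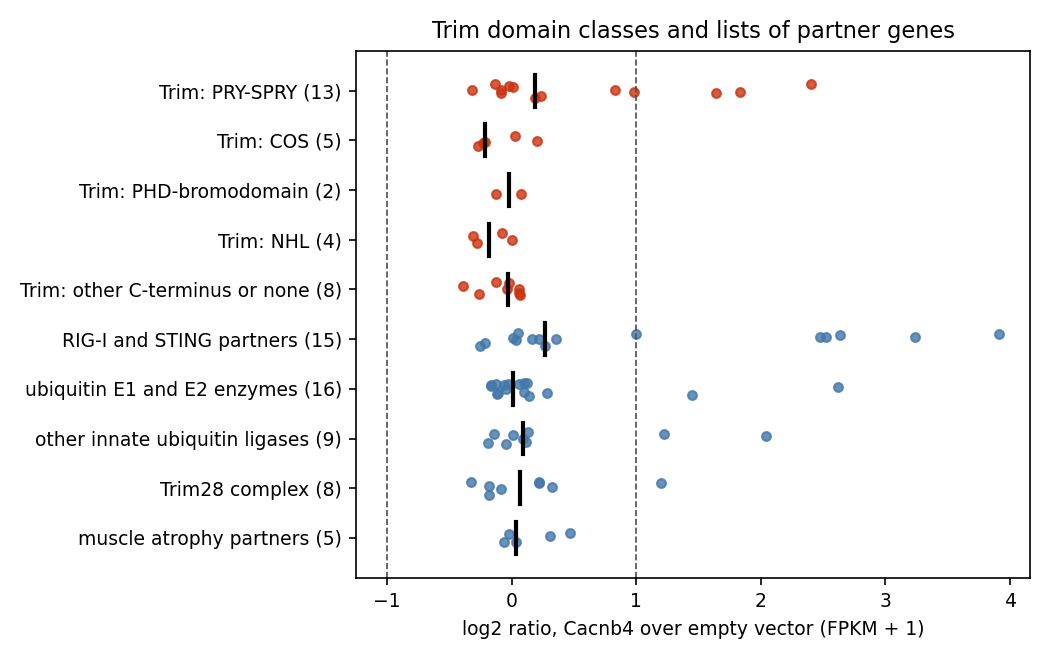
Log2 ratio of FPKM plus 1, Cacnb4 plasmid over empty vector, for each measured Trim gene by C-terminal domain class (red) and for genes of the partner lists (blue), with the number of genes in brackets. Black bars are medians and dashed lines mark 2-fold; the points beyond 2-fold in the Trim rows all lie in the PRY-SPRY class, whose median is 0.19.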

How the data were processed

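RNA of H9c2 cells was sequenced in 1 library per group, and groups came from the sample titles. The authors deposited read counts per library; per the file headers these are reads left once the adaptor was trimmed and those shorter than 10 bases were dropped. The submitters' processing notes list TopHat 1.4.1 and rn4, and the sources used here do not name the program behind the levels. The authors' table of 32767 transcripts names no unit; its values were read as the authors' FPKM from its layout and their range. The authors' deposited table also gives a q-value per transcript, with a mark below 0.05. Their deposited pathway table gives a fold enrichment ratio, not used here beyond its gene names.

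FPKM was summed per symbol (16783 symbols), leaving out 13533 transcripts without a name and 17 named as dates. The log2 ratio was log2((plasmid + 1)/(empty vector + 1)), which understates differences of low genes. Every count at 2-fold uses this scale, and values given as times are ratios of FPKM. FPKM does not give the reads behind a gene, so no counting interval is given. The table's starts may count from 0 or 1.

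Members and lists were chosen with earlier results of these data known, and the domain classes, bounds of the ratio distribution and overlapping motif pairs after the values were seen. All measured members are named. From each other list, up to 4 genes with the largest absolute log2 ratio are named, and Irf7, Zc3hav1, Rnf135, Mavs, Usp15, Tmem173, Ube2n and Ube2d3 besides, chosen after their values were seen. Alternatives were an added 0.1 or 5 FPKM, no minimum or 5 FPKM, the most abundant transcript in place of the sum, and rescaling to a median ratio of 1. Counting at 2-fold was checked on simulated data, in genes with a mean of 5 FPKM or more and with changes well above 2-fold. Differences near 2-fold and lower levels were not covered by that check. Python 3.11.15, numpy 2.4.6, pandas 2.3.3 and matplotlib 3.10.9 were used.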

Additional observations from a re-analysis of the deposited data

How the results depend on the processing

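No paired analysis was possible because each group has 1 library, and for the same reason no library could be left out. The median log2 ratio of the family lay between -0.02 and 0.02 under all 6 alternatives. The count of members at 2-fold or more was 3 or 4 higher and 0 lower. Over all genes, the counts ran from 125 to 244 higher and from 79 to 148 lower. Dropping the minimum could not change the count of members, since genes under 1 FPKM cannot reach 2-fold on this scale. Trim21 and Trim25 passed the minimum of 5 FPKM only through the plasmid library, where they were high. The fourth gene at 2-fold was Trim26, with a log2 ratio of 1.02 with 0.1 FPKM added and 1.02 after rescaling. Its lowest value was 0.87 with 5 FPKM added. The log2 ratio of Trim21 lay between 1.74 and 2.65, that of Trim34 between 1.38 and 1.99, that of Trim25 between 1.12 and 1.84 and that of Trim5 between 0.73 and 0.87. All 3 marks in the authors' deposited table held at a q below 0.01 and at 1 FPKM or more. The depth behind each value is unknown.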

Other observations

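Within 10 kb of a Trim locus lie 10 transcripts without a gene name, 0 of them marked in the authors' deposited table. Of all measured named genes, 98 of 9539 had a marked transcript, and the share among all unnamed transcripts was not counted. The 0 is therefore no result about Trim loci. The 3 of these 10 unnamed transcripts with the widest ratio are named here after their values were seen. One of them lies beside Trim39, on chromosome 20 from 2084464 to 2084635 in rn4, at 4.62 FPKM with the empty vector and 42.9 FPKM with the plasmid. The next lies beside Trim28, on chromosome 1 from 72884442 to 72884599, at 61.6 FPKM with the empty vector and 5.71 FPKM with the plasmid. The third lies beside Trim66, on chromosome 1 from 167045931 to 167046140, at 9.55 and 26.6 FPKM. Their loci are 171, 157 and 209 bases long, and the authors' deposited table gave them q-values of 0.607, 0.577 and 0.814. Trim39 and Trim28 themselves had log2 ratios of 0.19 and -0.12.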
